A study of Mus musculus with 2 samples.

Results

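The interferon γ and type 1 effector axis was described in stimulated CD8 T cells through 10 genes, of 24013 genes in the deposited table. The genes were listed by name, not by a rule on their measured values, but earlier results of these data were known by then. Each was found in the table under its own symbol. They are Ifng, Tbx21, Eomes, Runx3, Stat4, Il12rb1, Il12rb2, Ifngr1, Ifngr2 and Bhlhe40. Of the 10 genes, 9 had a single transcript row, and for Eomes the more abundant of its rows was used. The samples were 1 RNA-seq library from DGKzeta-deficient mice (genotype DGKζ-/-, strain C57BL/6, 6 weeks old) and 1 library from wild-type C57BL/6 mice (7 weeks old). Both libraries came from splenic naive CD8 T cells that had been kept for 24 hours on plates coated with antibodies to CD3 and CD28. DGKζ is a diacylglycerol kinase, an enzyme that removes the diacylglycerol made on T cell receptor engagement. The labels state neither the sex of the mice, nor how many were pooled, nor which exons of Dgkz are deleted.

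Interferon γ is the defining cytokine of type 1 immunity, which CD8 T cells share with Th1 and NK cells. Its gene is switched on by T cell receptor signals and by interleukin 12, which acts through the receptor chains IL-12Rβ1 and IL-12Rβ2 and the transcription factor STAT4. The T-box factors T-bet (encoded by Tbx21) and Eomesodermin, with RUNX3 and BHLHE40, sustain its transcription in CD8 and Th1 cells. Interferon γ itself signals through a receptor of 2 chains, IFN-γR1 and IFN-γR2, and the kinases JAK1 and JAK2.

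Every value below rests on 1 library per genotype, so no difference could be tested against a spread between samples. The 95% intervals cover counting error only, and they compare these libraries, not the genotypes. A normalized count is a read count divided by the size factor of its library, and 1 read was worth 1.71 normalized counts in the deficient and 0.583 in the wild-type library. The deficient library held 13464169 reads and the wild-type library 37211969, counting 1 transcript row per gene. Dgkz, the targeted gene, stood at 2591 normalized counts in the deficient library and 6714 in the wild-type library, 2.59-fold lower (2.46 to 2.74). Xist, the noncoding RNA that coats the inactive X, stood at 9206 and the Y-linked genes Ddx3y, Eif2s3y, Uty and Kdm5d at 0 in the deficient library, against 14.0 for Xist and 921 to 2192 for the Y-linked genes in the wild-type library. Genotype, sex and age therefore cannot be told apart in any value below.

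To show the DNA upstream of the genes with the highest and lowest ratios, windows of 250 bases ending at an annotated transcription start were taken from RefSeq (GRCm38.p6) for Ifng, Eomes and Runx3. All 3 lie on the plus strand, at chr10:118440796-118441045, chr9:118477939-118478188 and chr4:135120395-135120644. Capitals mark matches on either strand to TTCNNNGAA (the STAT motif) or TGTGGT (the RUNX motif).
Ifng: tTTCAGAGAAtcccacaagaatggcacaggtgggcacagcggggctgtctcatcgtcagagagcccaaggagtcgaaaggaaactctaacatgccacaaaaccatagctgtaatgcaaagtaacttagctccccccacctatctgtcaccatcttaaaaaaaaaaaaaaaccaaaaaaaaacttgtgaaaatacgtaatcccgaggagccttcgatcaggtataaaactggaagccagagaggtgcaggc
Eomes: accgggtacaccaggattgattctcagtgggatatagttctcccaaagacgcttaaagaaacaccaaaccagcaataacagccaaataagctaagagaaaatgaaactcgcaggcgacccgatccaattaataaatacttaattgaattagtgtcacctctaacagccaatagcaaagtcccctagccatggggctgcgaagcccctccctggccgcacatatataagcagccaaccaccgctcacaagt
Runx3: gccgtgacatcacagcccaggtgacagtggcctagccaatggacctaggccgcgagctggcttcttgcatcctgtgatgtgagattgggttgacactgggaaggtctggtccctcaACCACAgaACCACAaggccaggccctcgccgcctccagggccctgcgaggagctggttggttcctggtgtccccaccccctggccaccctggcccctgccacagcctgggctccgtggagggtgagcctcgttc

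Windows were found for 8 of the 10 genes, 10 windows in all. In the Ifng window the STAT motif began 249 bases before the start, and such a match occurred in 7.02% of all 32851 windows of this length. The NFAT core GGAAA, also searched but not capitalised, began 172 bases before the start of Ifng. It occurred in 55.6% of all windows. The Runx3 window shown held 2 RUNX motifs, beginning 134 and 126 bases before the start, against a match in 14% of all windows. The window at the other annotated start of Runx3 held no match to any motif searched. The Eomes window held no match to these motifs, nor to the AP-1 motif TGANTCA, the E-box CACGTG or the T-box half-site TCACACC. The last 3 motifs occurred in 6.75%, 6.02% and 3.33% of all windows. A match is a string of letters and does not show binding.

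Ifng was the gene of the axis that differed most between the libraries, and it was 3.29-fold higher in the deficient one (3.12 to 3.46). It stood at 5356 normalized counts in the deficient library (5170 to 5547) and 1629 in the wild-type library (1569 to 1690), from 3123 and 2793 reads. Its log2 ratio, computed with a pseudocount of 10 normalized counts in both libraries, was 1.71. The compared genes are the 10518 whose mean over both libraries reached 50 normalized counts, and 32 of them had a higher log2 ratio than Ifng. A log2 ratio of at least 1 was called higher and one of -1 or less lower. By this rule 1.3% of the compared genes were higher and 1.29% lower, together 2.6%. All 10 genes of the axis were compared, of which 1 (Ifng) was called higher, 0 were called lower and 9 were not called. In bulk RNA, more RNA per cell and more cells with the RNA cannot be told apart.

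**Figure D1:**
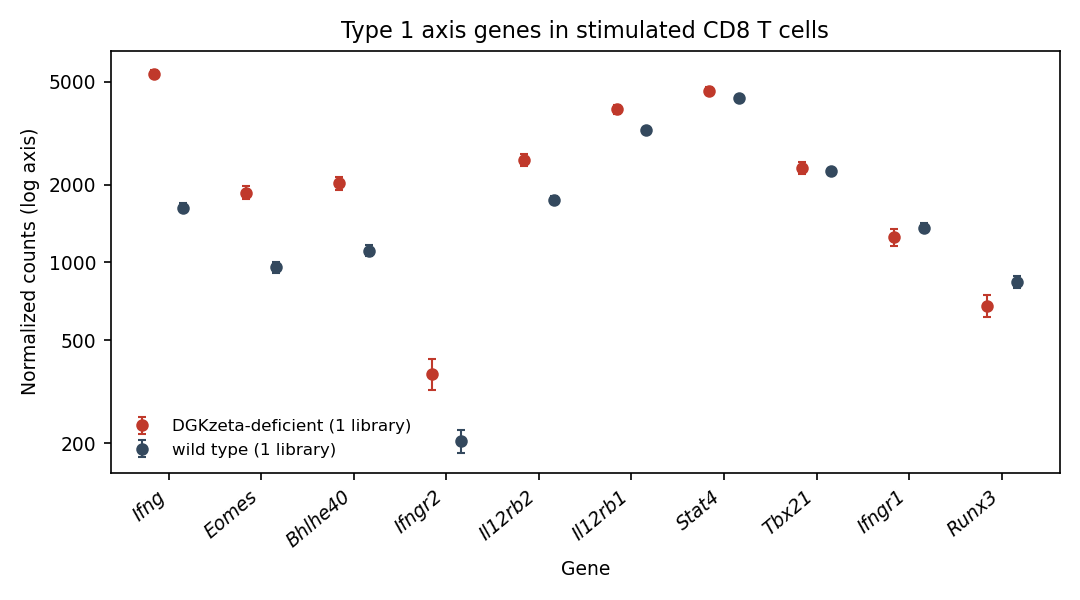
Normalized counts of the 10 genes (log axis) in the DGKzeta-deficient and the wild-type library, 1 library each, ordered by log2 ratio. Bars are exact 95% Poisson intervals and cover counting error only. Ifng stood at 5356 in the deficient and 1629 in the wild-type library, while Runx3 and Ifngr1 were lower in the deficient library.

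The 10 log2 ratios had a median of 0.39, against 0.055 over all compared genes, whose middle 50% lay between -0.14 and 0.22. Above that middle range lay 6 of the 10 genes, inside it 3, and below it Runx3. A log2 ratio above 0 was found for 8 of the 10 genes, against 58.2% of the compared genes. The genes therefore did not move as a block, and the ratios ran from 1.71 for Ifng to -0.30 for Runx3.

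**Figure D2:**
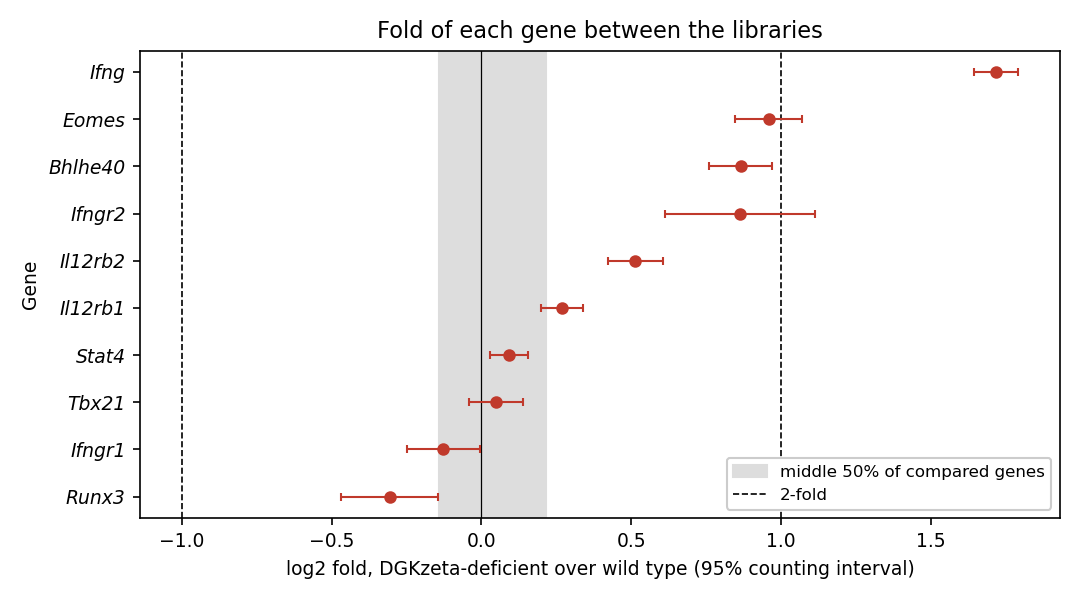
Log2 fold of each gene, DGKzeta-deficient over wild type, without a pseudocount, with exact 95% counting intervals. The grey band is the middle 50% of the log2 ratios of the compared genes (-0.14 to 0.22), and dashed lines mark 2-fold. Ifng alone lies wholly beyond 2-fold, and the intervals of Eomes and Ifngr2 reach across that line.

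The transcription factors of the axis differed unequally. Eomes, the T-box factor tied to memory and effector CD8 cells, stood at 1861 normalized counts in the deficient library and 956 in the wild-type library, 1.95-fold higher (1.80 to 2.10). It lay just under the call, with a log2 ratio of 0.95, and 150 compared genes were above it. Its transcript rows hold nearly the same reads (1085 in the deficient library in each, 1640 and 1639 in the wild-type library), so they are not separate measurements. Bhlhe40, which encodes a basic helix-loop-helix factor that favours cytokine production over IL-10 in mouse T cells, stood at 2027 normalized counts in the deficient and 1112 in the wild-type library. It was 1.82-fold higher (1.69 to 1.96).

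Tbx21, the gene of T-bet, was nearly level, at 2327 normalized counts in the deficient and 2251 in the wild-type library. Its fold of 1.03 had an interval that includes 1 (0.971 to 1.10), and 51.1% of the compared genes had a higher log2 ratio. Its log2 ratio of 0.048 became -0.041 when both libraries were scaled to equal totals and -0.0066 when ratios were centred on the median gene. Runx3, the factor that sets CD8 identity and silences Cd4, was lower in the deficient library, at 681 normalized counts, against 841 in the wild-type library. That is a 1.23-fold difference (1.10 to 1.38), and 13.8% of the compared genes had a lower log2 ratio. Stat4, which carries the interleukin 12 signal, stood at 4605 normalized counts in the deficient and 4321 in the wild-type library, a fold of 1.07 (1.02 to 1.11). Its log2 ratio of 0.092 became 0.0021 at equal totals.

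Ratios between genes within a library do not depend on the size factors. Per transcript length, Eomes was at 0.559 of the Tbx21 level in the deficient library and at 0.297 of it in the wild-type library. This ratio was 1.88 times as large in the deficient library (1.70 to 2.08), so the balance of the T-box genes was further towards Eomes there. The ratio of Ifng to Tbx21 per length was 4.74 in the deficient and 1.49 in the wild-type library, 3.18 times as large (2.93 to 3.45). That of Ifng to Eomes was 8.48 in the deficient and 5.02 in the wild-type library, 1.69 times as large (1.54 to 1.86). Ifng thus differed by more than either T-box gene within these libraries.

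Both receptor pairs were unequal, and in each the second chain had the higher fold. For interleukin 12, Il12rb2, the chain that binds STAT4 and is induced in type 1 cells, stood at 2488 normalized counts in the deficient and 1742 in the wild-type library, 1.43-fold higher (1.34 to 1.52). Il12rb1, the chain shared with the interleukin 23 receptor, stood at 3914 in the deficient and 3245 in the wild-type library, 1.21-fold higher (1.15 to 1.27), and its log2 ratio of 0.27 became 0.18 at equal totals. The ratio of Il12rb2 to Il12rb1 reads was 0.636 in the deficient and 0.537 in the wild-type library, 1.18 times as large (1.09 to 1.28).

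For interferon γ, Ifngr2, the signalling chain that recruits JAK2, stood at 370 normalized counts in the deficient and 204 in the wild-type library, 1.82-fold higher (1.53 to 2.16). It rested on the fewest reads of the axis, 216 in the deficient and 349 in the wild-type library. Ifngr1, the ligand-binding chain that recruits JAK1, stood at 1249 normalized counts in the deficient and 1363 in the wild-type library, a fold of 0.916 (0.842 to 0.996). The ratio of Ifngr2 to Ifngr1 reads was 0.297 in the deficient and 0.149 in the wild-type library, 1.99 times as large (1.64 to 2.41). Ifngr2 remained the scarcer chain in both, at 0.169 of the Ifngr1 level per length in the deficient and 0.085 in the wild-type library.

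Levels can be ordered between genes only per transcript length, here as normalized counts per kilobase of the GENCODE M21 transcript. In the deficient library the order was Ifng (4434), Stat4 (1544), Il12rb1 (1362), Tbx21 (935), Il12rb2 (830), Bhlhe40 (651), Ifngr1 (591), Eomes (523), Runx3 (175) and Ifngr2 (99.9). The counting intervals of Bhlhe40 and Ifngr1 overlapped there, as did those of Ifngr1 and Eomes. In the wild-type library the order was Stat4 (1449), Ifng (1348), Il12rb1 (1129), Tbx21 (905), Ifngr1 (645), Il12rb2 (581), Bhlhe40 (357), Eomes (269), Runx3 (216) and Ifngr2 (54.9), and no neighbours overlapped. Ifng ranked first in the deficient and second in the wild-type library, while the last 3 places were the same in both.

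Upstream of Ifng, the 14 other genes of interleukin 12 and interleukin 18 input gave 13 compared genes. Of these, 2 were called higher, 0 lower and 11 not called, where 1.3% of all compared genes were called higher. Their median log2 ratio was 0.018, against 0.055 over all compared genes. The called genes were Gadd45b and Gadd45g, which encode stress-induced activators of p38 signalling that promote Ifng transcription in mouse T cells. Gadd45b stood at 813 normalized counts in the deficient and 243 in the wild-type library, 3.35-fold higher (2.93 to 3.83). Gadd45g stood at 156 in the deficient and 70.6 in the wild-type library, 2.21-fold higher (1.67 to 2.93). Jak2, the kinase of both the IL-12Rβ2 and the IFN-γR2 chain, stood at 5831 in the deficient and 3220 in the wild-type library, 1.81-fold higher (1.73 to 1.89). The interleukin 18 receptor genes Il18r1 and Il18rap had log2 ratios of -0.10 and -0.13. Their fold intervals include 1 (0.705 to 1.21 for Il18r1 and 0.757 to 1.10 for Il18rap).

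Downstream of the interferon γ receptor, 15 signalling genes were compared and 0 were called in either direction, where 2.6% of all compared genes were. Their median log2 ratio was 0.15, against 0.055 over all compared genes, with 11 above 0 and 4 below, and Jak2, also on this list, had the highest. After Jak2, the largest log2 ratios of this list belonged to Cish (0.51), a feedback inhibitor of cytokine receptors, and Irf9 (0.33), a transcription factor of interferon signalling. Jak1 had a log2 ratio of -0.26.

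Genes that interferon γ induces had a median log2 ratio of 0.091, against 0.055 over all compared genes. Of 29 such genes 28 were compared, with 1 called higher, 1 lower and 26 not called, where 2.6% of all compared genes were called in either direction. A log2 ratio above 0 was found for 20 of them and one below 0 for 8. Cxcl10, a chemokine that draws CXCR3-bearing cells, stood at 144 normalized counts in the deficient and 40.8 in the wild-type library, 3.53-fold higher (2.54 to 4.92). Ciita, the master activator of MHC class II genes, stood at 39.4 in the deficient and 90.4 in the wild-type library, 2.29-fold lower (1.47 to 3.72). The 7 B cell markers, which include MHC class II genes, also had log2 ratios below 0 (values below). Cd74 was nearly level among them, with a log2 ratio of -0.040. Iigp1, an interferon-induced GTPase, was 1.44-fold higher (1.38 to 1.49), the next largest log2 ratio of the list in absolute size. Irf1, an interferon-induced transcription factor gene, stood at 6577 in the deficient and 5871 in the wild-type library, a fold of 1.12 (1.08 to 1.16). Type I interferon induces many of the same genes.

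Partners and targets of T-bet were mixed. Of 22 genes 15 were compared, with a median log2 ratio of 0.062 and 0 called in either direction. Over all compared genes 2.6% were called. Gzmb, which encodes granzyme B, stood at 40806 normalized counts in the deficient and 23964 in the wild-type library, 1.70-fold higher (1.68 to 1.73). Ccl3, a chemokine of effector cells, had a log2 ratio of 0.72, and Zeb2, a repressor that acts with T-bet in terminal effectors, one of 0.71. Cxcr3, a chemokine receptor gene that T-bet activates, had a log2 ratio of -0.64, at 94.3 normalized counts in the deficient and 152 in the wild-type library.

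The list of restraints on type 1 genes was mostly lower in the deficient library. Of its 18 genes 16 were compared, 13 with a log2 ratio below 0 and 3 above it, where 58.2% of all compared genes were above 0, and their median was -0.28. By the 2-fold rule 0 were called in either direction, where 2.6% of all compared genes were called. Bcl6, a repressor that opposes effector differentiation, stood at 42.9 normalized counts in the deficient and 91.5 in the wild-type library, with a log2 ratio of -0.94. Zfpm1, which encodes FOG-1, a GATA cofactor known in T cells for restraining GATA3 and not for holding back type 1 genes, stood at 971 in the deficient and 1826 in the wild-type library, with a log2 ratio of -0.90. Bach2, which restrains effector genes in CD8 cells, stood at 3101 in the deficient and 4973 in the wild-type library, with a log2 ratio of -0.68. In the other direction, Ezh2, a histone methyltransferase, had a log2 ratio of 0.41. This list holds several genes of the naive T cell state, and the CD8 T cell markers had a median of -0.48 (values below). Whether these differences share a source was not tested.

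The cytokines of the competing type 2 and type 17 programs were scarcely detected, whereas receptor and signalling genes of those programs were abundant. Il4ra stood at 6776 normalized counts in the deficient and 6625 in the wild-type library, and Stat6 at 5203 in the deficient and 4483 in the wild-type library. Of 20 genes 6 were compared, with a median log2 ratio of 0.077 and 0 called, where 2.6% of all compared genes were called. Rora had a log2 ratio of 0.63, Ahr one of -0.51 and Il17ra one of -0.27. The signature cytokines had few reads: Il4 had 1 read in the deficient and 2 in the wild-type library, Il13 had 1 in the deficient and 9 in the wild-type library, and Il17a had 0 in both. A count of 0 allows up to 3 reads, which is 5.14 normalized counts in the deficient and 1.75 in the wild-type library. Gata3, the type 2 regulator, did not reach the minimum mean, with 25.7 normalized counts in the deficient and 66.5 in the wild-type library.

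Among 19 family relatives of the 10 genes, 16 were compared and 0 were called, with a median log2 ratio of 0.16. The share called among all compared genes was 2.6%. Il10ra, a class II cytokine receptor chain like the IFN-γR chains, had a log2 ratio of 0.76. Il6st, which encodes gp130, the chain that IL-12Rβ2 resembles, had one of -0.58, and Stat5a one of 0.46. Runx1 (-0.37), Runx2 (-0.28) and Cbfb (-0.39), the shared partner subunit of RUNX proteins, had log2 ratios on the same side of 0 as Runx3. Runx2 had 27 reads in the deficient and 100 in the wild-type library, and its fold interval includes 1 (0.499 to 1.23).

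**Figure D3:**
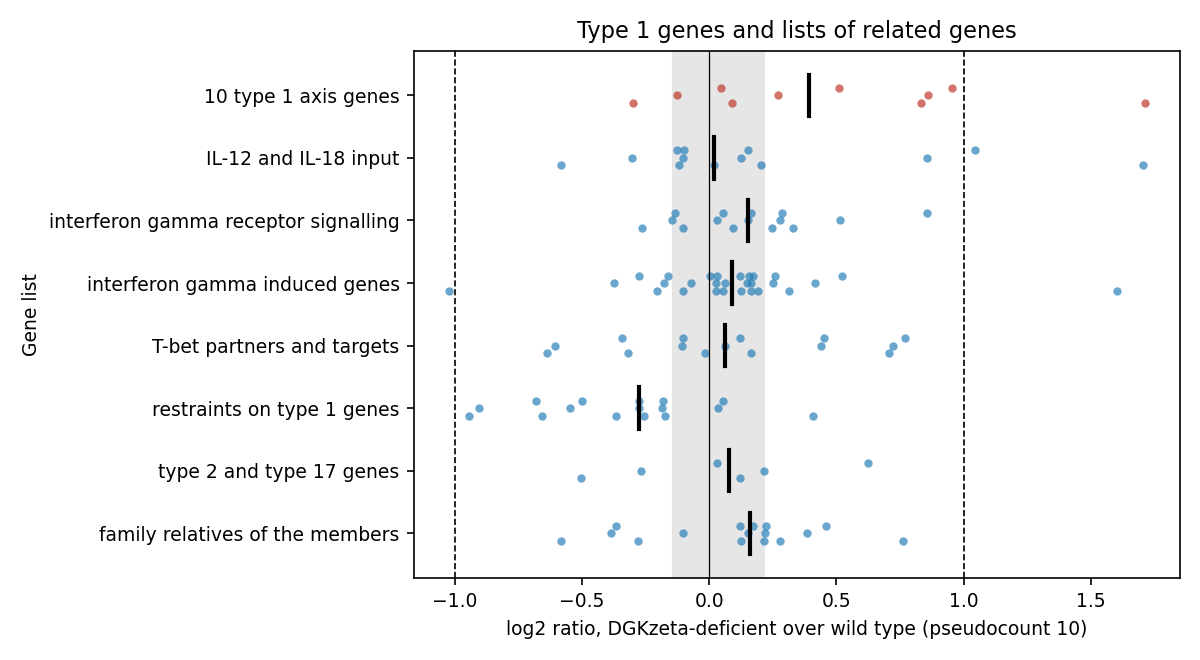
Log2 ratios, DGKzeta-deficient over wild type, of the 10 genes and of the compared genes of 7 related lists. Each point is a gene, black bars are medians, the grey band is the middle 50% of the compared genes, and dashed lines mark 2-fold. The 10 genes have a median of 0.39, the restraints on type 1 genes one of -0.28, and the interferon γ induced genes one of 0.091.

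Cell type markers were read beside these values, since NK and Th1 cells also use this axis. CD8 T cell markers were plentiful, with Cd8a at 8455 normalized counts in the deficient and 13090 in the wild-type library. The 5 measured CD8 T cell markers summed to 22072 in the deficient and 31261 in the wild-type library, and all had log2 ratios below 0. The 10 NK markers that are not members of the axis summed to 820 in the deficient and 1052 in the wild-type library, mostly from Klrd1 and Klrk1, which activated CD8 T cells also use. Klrd1 was called lower, at 134 normalized counts in the deficient and 395 in the wild-type library, while Klrk1 stood at 633 in the deficient and 587 in the wild-type library. The defining NK genes Ncr1 and Klrb1c had 0 reads in the deficient and 7 and 9 reads in the wild-type library, which held more reads in total. Their fold intervals, 0 to 2.04 for Ncr1 and 0 to 1.49 for Klrb1c, include 1. The 7 B cell markers summed to 2065 in the deficient and 2738 in the wild-type library, with 2 called lower, H2-Eb1 among them. The largest part of both sums came from Cd74, at 1252 in the deficient and 1287 in the wild-type library. Its fold was 0.972 (0.893 to 1.06), whereas the median log2 ratio of the 7 markers was -0.83. The 4 CD4 T cell markers summed to 427 in the deficient and 510 in the wild-type library, with Cd4 called lower. Most of both sums came from Foxp3, at 321 in the deficient and 262 in the wild-type library, 1.22-fold higher (1.03 to 1.46). The 7 measured myeloid markers summed to 268 in the deficient and 270 in the wild-type library. Most of the deficient sum came from Mpeg1, at 185 in the deficient and 127 in the wild-type library, 1.46-fold higher (1.15 to 1.85). Each of the other measured myeloid markers was lower in the deficient library, most of them on few reads. Among them, Cd68 stood at 70.3 in the deficient and 93.9 in the wild-type library, and Itgam at 1.71 and 15.7. What part other cells had in the values of the axis was not tested.

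With 2 libraries, the pattern of a gene is a single ratio. The 5 compared genes nearest to Ifng in log2 ratio were Wdtc1, Ubald2, Gm7367, Gadd45b and Scd1, at log2 ratios of 1.71 to 1.70. Ubald2 and Gm7367 had nearly equal reads, 682 and 680 in the deficient and 602 and 601 in the wild-type library, and whether they share reads was not tested.

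The authors' deposited table of fold changes ranked these genes otherwise. In the authors' deposited table the log2 fold change of Ifng was 0.17, with a p-value of 0.303, against a log2 ratio of 1.71 from the normalized counts. For Eomes the authors' deposited table gave 0.59 (p-value 0.0242) and for Bhlhe40 0.55 (p-value 0.033), the only genes of the axis with a p-value under 0.05 there. Such a p-value was given to 1.91% of the compared genes, and the smallest adjusted p-value anywhere in the authors' deposited table was 0.999. Dgkz itself had a log2 fold change of -0.20 in the authors' deposited table, against a log2 ratio of -1.37. In absolute size, 3568 compared genes exceeded Ifng in the authors' deposited table, whereas 51 did so by log2 ratio.

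**Figure D4:**
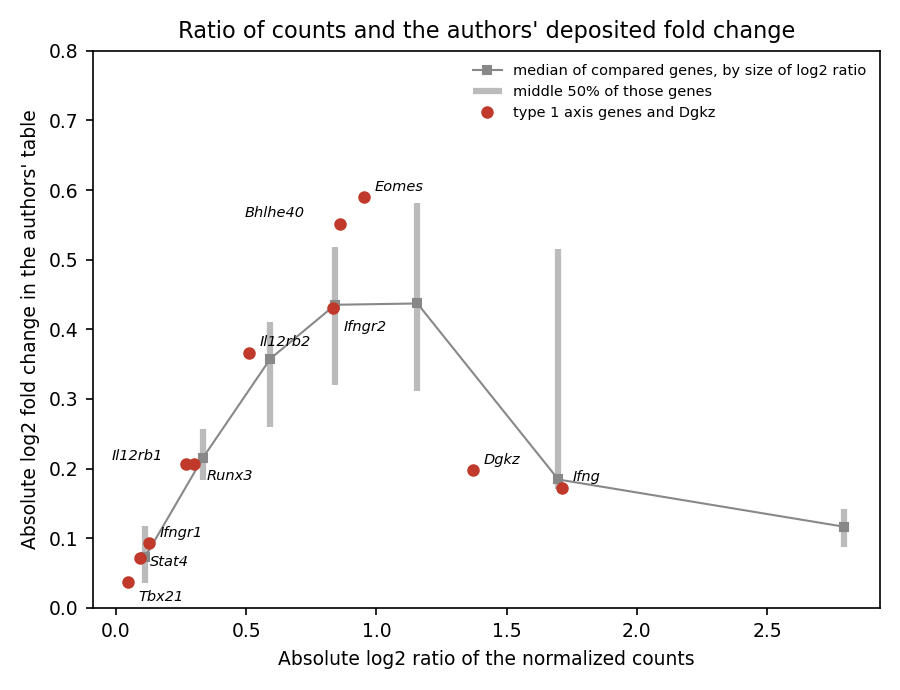
Absolute log2 fold change in the authors' deposited table (y axis) against the absolute log2 ratio of the normalized counts (x axis), for the 10 genes and Dgkz (red) and as medians with quartiles of compared genes grouped by size of their log2 ratio (grey). The authors' values are largest for genes near a log2 ratio of 1, such as Eomes (0.59), while that of Ifng is 0.17.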

How the data were processed

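RNA was sequenced from 1 library per genotype. STAR (version 2), DESeq and the build mm9 are named, without roles, per the submitters' processing notes. Which program counted the reads, and over which annotation release, is not given in the sources used here. Per the file headers, the authors deposited normalized read counts (a signal that is never negative) per RefSeq transcript row, 33018 rows in all. Divided by the smallest positive value of its library, each deposited value gave a whole number in 100% of rows of both libraries (relative tolerance 0.0001), so whole reads were recovered, with size factors of 0.583 (deficient) and 1.71 (wild type). The other table that the authors deposited gives log2 fold changes, a test score and p-values per row. Its log2 and p-values are quoted as deposited and its score was not used. Of the rows, 1 was left out because an additional tab shifts its values.

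The row with the highest mean stood for each gene. The log2 ratio is log2((deficient + 10)/(wild type + 10)), which understates the change of low genes. Folds have no pseudocount. Their intervals are exact (Clopper-Pearson on the deficient share of the reads of a gene), those of levels are exact Poisson intervals, and those of ratios of ratios are conditional exact intervals of the odds ratio (scipy 1.17.1). PCR copies cannot be recognised, since no molecular identifiers are described, so reads need not be separate molecules. No p-value was computed, and a count model has no residual degrees of freedom here. The kit does not mark strand, so antisense reads cannot be separated. Transcript lengths are of GENCODE M21 models, not of the models that were counted. Python 3.11.15 was used, and the procedures were tested on simulated counts that held counting error only. Those counts had no spread between samples, so they cannot show how the calls behave between mice.

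The members, lists and rules were chosen with earlier results of these data known. Named are the 10 genes, Dgkz, the 3 compared genes with the largest absolute log2 ratio of each related list, called genes where 5 or fewer were called in a direction, the 5 genes nearest to Ifng, and marker genes. Outside that rule, Xist and the Y-linked genes, Il18r1, Il18rap, Jak1, Irf1, Cxcr3, Ezh2, Il4ra, Stat6, Il4, Il13, Il17a, Gata3, Runx1, Runx2 and Cbfb were chosen after their values were seen. A marker gene covered by this rule is not reported here. Alternatives covered scaling, pseudocount, expression minimum, transcript row and read depth.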

Additional observations from a re-analysis of the deposited data

How the results depend on the processing

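The count of genes of the axis called higher was 1 and called lower 0 under all 9 alternatives. Their median log2 ratio of 0.39 ranged from 0.30 (equal totals) to 0.39 (pseudocount 1). Over all compared genes, the count called lower was 136, and it was 67 with a pseudocount of 50, 375 with no minimum on expression and 71 where a mean of 200 was required. At equal totals 115 genes were called higher and 179 lower, against 137 and 136 as reported, and 119 and 158 after centring on the median gene. Of single genes of the axis, Tbx21 changed the side of 0 at equal totals and after centring, and the other 9 kept theirs in 7 alternatives. Stat4, at 0.092 as reported, was 0.0021 at equal totals. Ifng ranged from 1.62 to 1.72 and Eomes from 0.86 to 0.98. The Eomes, Bhlhe40 and Ifngr2 log2 ratios stayed under 1 in all 7. No paired analysis was possible because each genotype has 1 library. Ifngr2, with 216 reads in the deficient library, has the widest fold interval of the axis.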

Other observations

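The compression of the authors' deposited log2 fold changes was not particular to Ifng. Among compared genes with an absolute log2 ratio of 0.75 to 1, the median absolute value in the authors' deposited table was 0.44 (310 genes). It was 0.44 for the 192 genes from 1 to 1.5, 0.18 for the 47 genes from 1.5 to 2, and 0.12 for the 34 genes from 2 upwards. The largest absolute value of any compared gene in the authors' deposited table was 0.67. A ranking by the authors' deposited table therefore puts Eomes and Bhlhe40 far ahead of Ifng, and one by normalized counts puts Ifng first.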
